A study of Mus musculus with 8 samples.

Results

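The genes described here encode the respiratory chain complexes and the ATP synthase of mitochondria. They were taken by name from the deposited gene count table, as every gene whose symbol starts with Nduf, Sdha, Sdhb, Sdhc, Sdhd, Uqcr, Cox4, Cox5, Cox6, Cox7, Cox8 or Atp5, with pseudogene and Rik symbols left out, so no measured value entered the choice. The rule found 94 of 24054 genes. By role they were 36 subunits of complex I (7 catalytic core and 29 accessory), 4 of complex II, 8 of complex III, 12 of or associated with complex IV, 15 of complex V, 11 assembly factors and related genes, and 8 isoforms known mainly from muscle, testis or hypoxic tissue. Of these, 88 passed the filter on low counts and were tested.

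Oxidative phosphorylation passes electrons from NADH and succinate through complexes I and II to ubiquinone, then through complex III and cytochrome c to complex IV, which reduces oxygen. Complexes I, III and IV pump protons across the inner mitochondrial membrane, and the returning protons drive ATP synthesis by complex V. Most subunits are encoded in the nucleus and imported, a small set is encoded in mitochondrial DNA, and assembly factors help put the complexes together without staying in them.

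The samples were 2 mouse lines that the labels describe as immature B lymphocytes, WEHI-control and WEHI-miR-148a, the second named for the microRNA miR-148a. Each line was left unstimulated or treated with anti-IgM, an antibody that crosslinks the B cell receptor, at 2 ug/ml for 14 h. Each of the 4 groups had 2 libraries of polyA-selected RNA, 8 in all, and replicate 1 of every group carries the header prefix R137 and replicate 2 the prefix R143. The sources used here do not state how miR-148a was introduced, whether a line is 1 clone or whether replicates are separate cultures. The p-values therefore weigh a difference against library-to-library spread alone, and that spread may be technical.

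Library totals ran from 5810227 to 18660373 counts, and both R137 libraries with anti-IgM were the shallowest. Of 8 B lineage markers 7 were measured, all passed the filter, and they summed to between 2475 and 3542 CPM (counts scaled by library total and TMM composition factor) in a library. T cell markers summed to at most 1.0 CPM and fibroblast markers to at most 0.615. Erythroid markers summed to between 0.493 and 2.12 CPM, and of these 5 only Alas2 passed the filter. Alas2 was higher in the R143 than in the R137 library of every group. Of 6 myeloid markers measured, 3 (Lyz2, S100a8 and S100a9) were at 0 in all libraries. The myeloid sum was 2.23 to 3.43 CPM without and 3.18 to 5.91 CPM with anti-IgM. In it Cd68 was higher in every stimulated library, while Emr1 and Csf1r overlapped between the states. The part of these markers in the results was not tested. In bulk libraries fewer cells of a type and less RNA per cell cannot be told apart. The 94 genes held 1.06% to 1.21% of all counts of a library, 1.17% to 1.21% in the R137 and 1.06% to 1.12% in the R143 libraries.

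Averaged over all libraries, the highest level per kilobase of transcript was that of Atp5b, the catalytic beta subunit, at 753 CPM per kb. It was followed by Atp5g3, a gene for the membrane ring subunit c, at 568 CPM per kb, Cox4i1, the ubiquitous form of complex IV subunit 4, at 548 CPM per kb, and the alpha subunit gene Atp5a1 at 488 CPM per kb. The assembly factors lay far below these, from Ndufaf3 with 3.95 CPM per kb to Ndufaf2 with 25.8 CPM per kb. Some subunit genes lay within this range, as Ndufab1 of complex I with 25.1 CPM per kb near its upper end. Ndufb2 and Ndufs5 of complex I were lower still. These levels rest on the median length of annotated coding transcripts and move with that length.

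Where a subunit has a general and a tissue-restricted isoform, the general form carried nearly all of the signal in every library. Cox4i1 ranged from 368 to 453 CPM while Cox4i2, its lung isoform, was at 0 counts in all 8 libraries, which allows at most 0.502 CPM in the shallowest one (3 counts, counting error only). Cox7b2 and Cox8c were at 0 as well. Cox6a2, the heart and muscle isoform, reached at most 0.185 CPM against 95.9 to 110.2 CPM of Cox6a1. Cox6b2 and Cox8b were found in 1 library each, at 0.0766 and 0.0870 CPM. Cox7a1, a muscle isoform, averaged 1.33 CPM and passed the filter, as did Ndufa4l2, a hypoxia-linked paralog of Ndufa4, at 0.597 CPM. The other 6 of these isoforms did not pass and were not tested.

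The 3 subunit c genes encode the same mature protein behind different import sequences. Per kilobase Atp5g3 held 48.6% to 54.5% of their sum, Atp5g2 40.6% to 47.0% and Atp5g1 3.90% to 5.77%. Atp5g1 was also the lowest in CPM in every library.

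The first comparison asked which of these genes changed when the control line was treated with anti-IgM. None of the 88 rose and 3 fell in edgeR's quasi-likelihood test at an adjusted p under 0.05, against 17.0% of all 11291 genes tested. The 3 were the complex I assembly factors Ndufaf4 and Ndufaf2 and the Rieske iron-sulfur protein of complex III, Uqcrfs1. The median log2 fold change was -0.11 over the 88 genes and 0.01 over all genes tested, and 69 of the 88 moved by less than 0.25 on the log2 scale against 5610 of 11291 genes. With 1 library of the line left out the median of the 88 was -0.06 (without replicate 1 of the unstimulated group), -0.17 (replicate 2 of it), -0.16 (replicate 1 of the stimulated group) or -0.05 (replicate 2 of it). With the replicate number as a block, 1 rose and 13 fell, against 34.8% of all genes.

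When the miR-148a line was treated, 1 of the 88 genes rose and 3 fell, against 28.7% of all genes. Ndufaf4 and Uqcrfs1 fell again, together with the subunit c gene Atp5g1, and Atp5sl rose. Atp5sl is named after an ATP synthase subunit and is also called Dmac2, a factor of complex I assembly. The median log2 fold change was -0.06 over the 88 genes and 0.00 over all genes, and 74 of the 88 moved by less than 0.25 against 4713 of 11291 genes. In the same order of libraries left out, the median of the 88 was 0.01, -0.12, -0.19 and 0.01, so its sign rests on single libraries. With the replicate block 3 rose and 13 fell, against 46.1% of all genes.

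**Figure D1:**
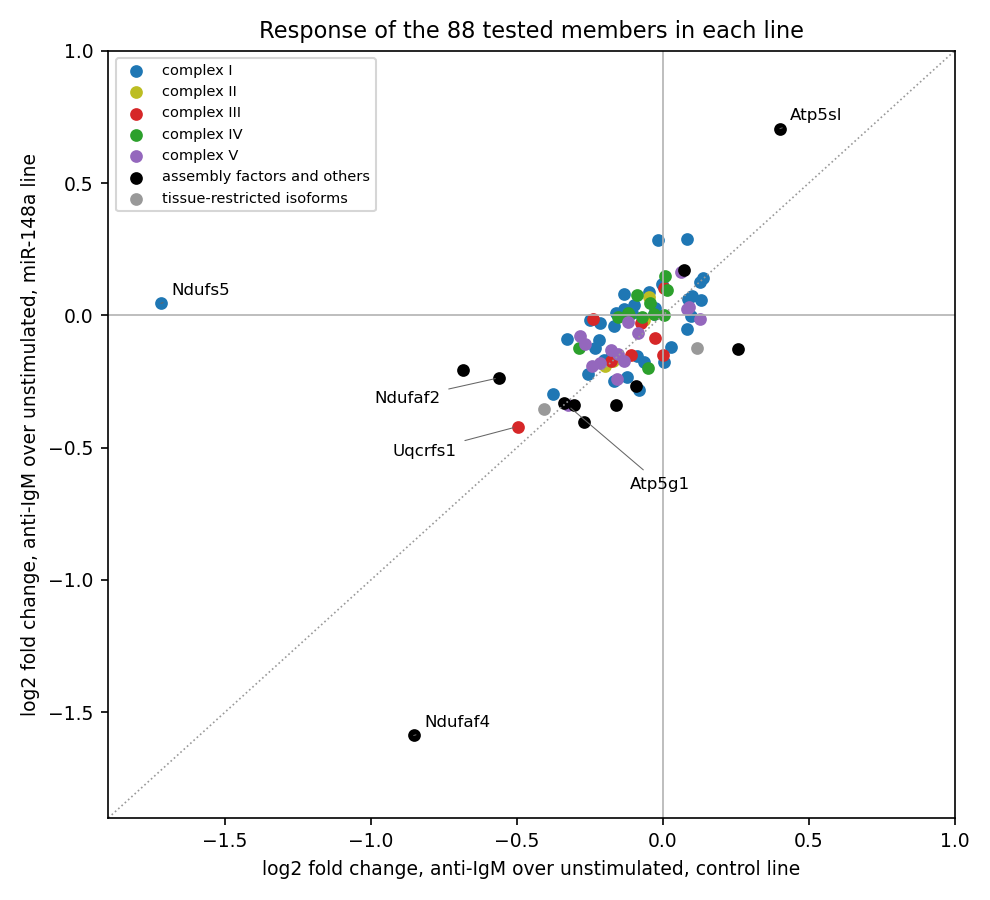
Log2 fold change with anti-IgM over unstimulated in the control line (horizontal axis) and in the miR-148a line (vertical axis) for the 88 tested genes, 1 point each, coloured by complex; the dotted line marks equal change. Most points lie within 0.25 of 0 on both axes, and Ndufaf4 (-0.85 and -1.59), Atp5sl (0.40 and 0.71) and Ndufs5 (-1.72 and 0.05) lie outside the cloud.

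For 4 of the 5 genes called in either line, the RefSeq promoter (build GRCm38.p6) holds a short match to a factor known at mitochondrial gene promoters, shown here because these are the genes that moved. Each stretch is 120 bases on the gene's own strand, ends at the start site or, for Atp5g1, shortly before the RefSeq start, and has the matches in capitals.
Ndufaf4, chr4:24897963-24898082, plus strand: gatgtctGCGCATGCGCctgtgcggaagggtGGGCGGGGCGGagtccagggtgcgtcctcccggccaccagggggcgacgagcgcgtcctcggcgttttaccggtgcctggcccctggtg
Ndufaf2, chr13:108158626-108158745, minus strand: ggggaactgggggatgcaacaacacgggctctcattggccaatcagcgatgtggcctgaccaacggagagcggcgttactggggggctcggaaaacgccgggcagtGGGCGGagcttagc
Atp5g1, chr11:96075661-96075780, minus strand: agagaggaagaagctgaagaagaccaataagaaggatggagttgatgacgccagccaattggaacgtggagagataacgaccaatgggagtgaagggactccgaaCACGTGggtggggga
Atp5sl, chr7:25619294-25619413, plus strand: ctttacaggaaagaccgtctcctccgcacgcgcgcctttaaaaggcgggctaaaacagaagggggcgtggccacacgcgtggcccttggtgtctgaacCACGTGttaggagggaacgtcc

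In Ndufaf4 the capitals mark the NRF1 motif GCGCANGCG, which matches both strands at -113 and -112 from the start, and a pair of overlapping GC boxes (GGGCGG, bound by SP1) at -89 and -84. Ndufaf2 has 1 GC box at -14, and Atp5g1 and Atp5sl have the E-box CACGTG, a motif that MYC can bind, at -44 and -22. The window of Atp5sl also has the YY1 motif AAGATGGCG at 26 after the start, and the other RefSeq window of this gene, with a later start, has the E-box at -101 and the YY1 motif at -53. The window of Uqcrfs1 held none of the motifs searched. The NRF1 motif was in 27.4% of 84 windows of 78 of the 94 genes. It was in 14.0% of 10889 windows of tested genes, which were found by symbol and joined to those 84, and in 6.25% of all 32851 windows. For the ETS motif CCGGAAG (GABPA) these shares were 22.6%, 18.6% and 8.86%, for the YY1 motif 10.7%, 3.21% and 1.40%, and for the E-box 10.7%, 10.2% and 7.15%. The GC box was in 44.0%, 63.3% and 35.7%. Windows run from 250 bases before to 50 after the start, both strands were searched, and a match is a string of letters, not evidence of binding.

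Ndufaf4 (chromosome 4, 24898083 to 24905001, plus strand, GRCm38) had the largest change among the called genes in both lines. In the control line it was at 44.1 and 41.8 CPM unstimulated and at 24.4 and 23.2 CPM with anti-IgM. The miR-148a line had 49.6 and 41.3 CPM unstimulated and 20.1 and 11.3 CPM with anti-IgM. All 4 stimulated libraries lay below all 4 unstimulated ones, and the lowest was replicate 2 of the stimulated miR-148a line. The log2 fold change was -0.85 ± 0.21 (SE, adjusted p = 0.0247 by edgeR's quasi-likelihood test) in the control line, a level 0.553 times that before. It was -1.59 ± 0.22 (adjusted p = 0.00133) in the miR-148a line, or 0.332 times. The control line's call was lost when any 1 of its 4 libraries was left out (adjusted p up to 0.111), with the log2 fold change between -0.90 and -0.82, while the call in the miR-148a line held in all 14 alternatives.

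Whether Ndufaf4 responded differently in the 2 lines was tested by the interaction. The response of the miR-148a line minus that of the control line was -0.73 (95% interval -1.42 to -0.05, unadjusted p = 0.0374), which did not pass after adjustment (adjusted p = 1.0, and 0.164 with the replicate block). Between the stimulated groups the miR-148a line minus the control line was -0.65 ± 0.23 (adjusted p = 0.182), and this passed with the replicate block (-0.69, adjusted p = 0.0126). The difference was -0.28 in the R137 pair and -1.03 in the R143 pair.

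Uqcrfs1 (chromosome 13, 30540308 to 30545362, minus strand) encodes the iron-sulfur subunit that takes electrons from ubiquinol in complex III. It was at 206 and 210 CPM unstimulated and 152 and 142 CPM with anti-IgM in the control line, and at 212 and 207 CPM unstimulated and 166 and 147 CPM with anti-IgM in the miR-148a line. Within each line the stimulated libraries lay below the unstimulated ones, and the lines overlapped in the unstimulated state. Its log2 fold change was -0.50 ± 0.10 (adjusted p = 0.0113) in the control line and -0.42 ± 0.10 (adjusted p = 0.0123) in the miR-148a line, and the interaction was 0.08 (95% interval -0.24 to 0.39). In each line the call was lost without either unstimulated library or without replicate 2 of the stimulated group (adjusted p up to 0.0685 and 0.0891).

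The other 7 complex III genes were not called. The core proteins Uqcrc1 and Uqcrc2 had log2 fold changes of -0.11 and -0.18 in the control line and -0.15 and -0.17 in the miR-148a line.

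Ndufaf2 (chromosome 13, 108002715 to 108158623, minus strand), a late assembly factor of complex I, was at 20.8 and 19.8 CPM unstimulated and 14.4 and 13.3 CPM with anti-IgM in the control line. The miR-148a line had 16.6 and 15.1 CPM unstimulated and 15.3 and 12 CPM with anti-IgM, and there the groups overlapped. Its log2 fold change was -0.56 ± 0.15 (adjusted p = 0.0333) in the control line and -0.24 ± 0.15 (adjusted p = 0.275) in the miR-148a line, and the interaction of 0.32 (95% interval -0.15 to 0.80) did not pass. The call in the control line was lost with DESeq2 (adjusted p = 0.0984) and when any library of the control line or of the unstimulated miR-148a group was left out.

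Atp5g1 (chromosome 11, 96068852 to 96075670, minus strand) was at 151 and 172 CPM unstimulated and 121 and 136 CPM with anti-IgM in the control line. The miR-148a line had 145 and 155 CPM unstimulated and 122 and 115 CPM with anti-IgM. The stimulated libraries lay below the unstimulated ones in both lines. Its log2 fold change was -0.33 ± 0.11 (adjusted p = 0.0732, 0.00656 with the replicate block) in the control line and -0.34 ± 0.11 (adjusted p = 0.0461) in the miR-148a line. That call was lost in 9 of 14 alternatives, among them both other scalings and the removal of any library of the miR-148a line or any of the unstimulated control ones. The other subunit c genes had smaller values, Atp5g2 0.09 and 0.03 and Atp5g3 -0.13 and -0.17 in the control and miR-148a lines. Atp5g3 passed in the miR-148a line with the replicate block (adjusted p = 0.0459).

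Atp5sl was the only one of the 88 genes that rose in either line without the block. In the control line its level was 23.3 and 27.1 CPM unstimulated and 30.8 and 35.0 CPM after treatment. The miR-148a libraries had 28.5 and 25.8 CPM unstimulated and 40.6 and 47.4 CPM after it. The stimulated miR-148a libraries were the highest of the 8. The log2 fold change was 0.71 ± 0.13 (adjusted p = 0.0046) in the miR-148a line, a call that held in all 14 alternatives, and 0.40 ± 0.13 (adjusted p = 0.0718, 0.0156 with the replicate block) in the control line. The interaction was 0.30 (95% interval -0.12 to 0.73).

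**Figure D2:**
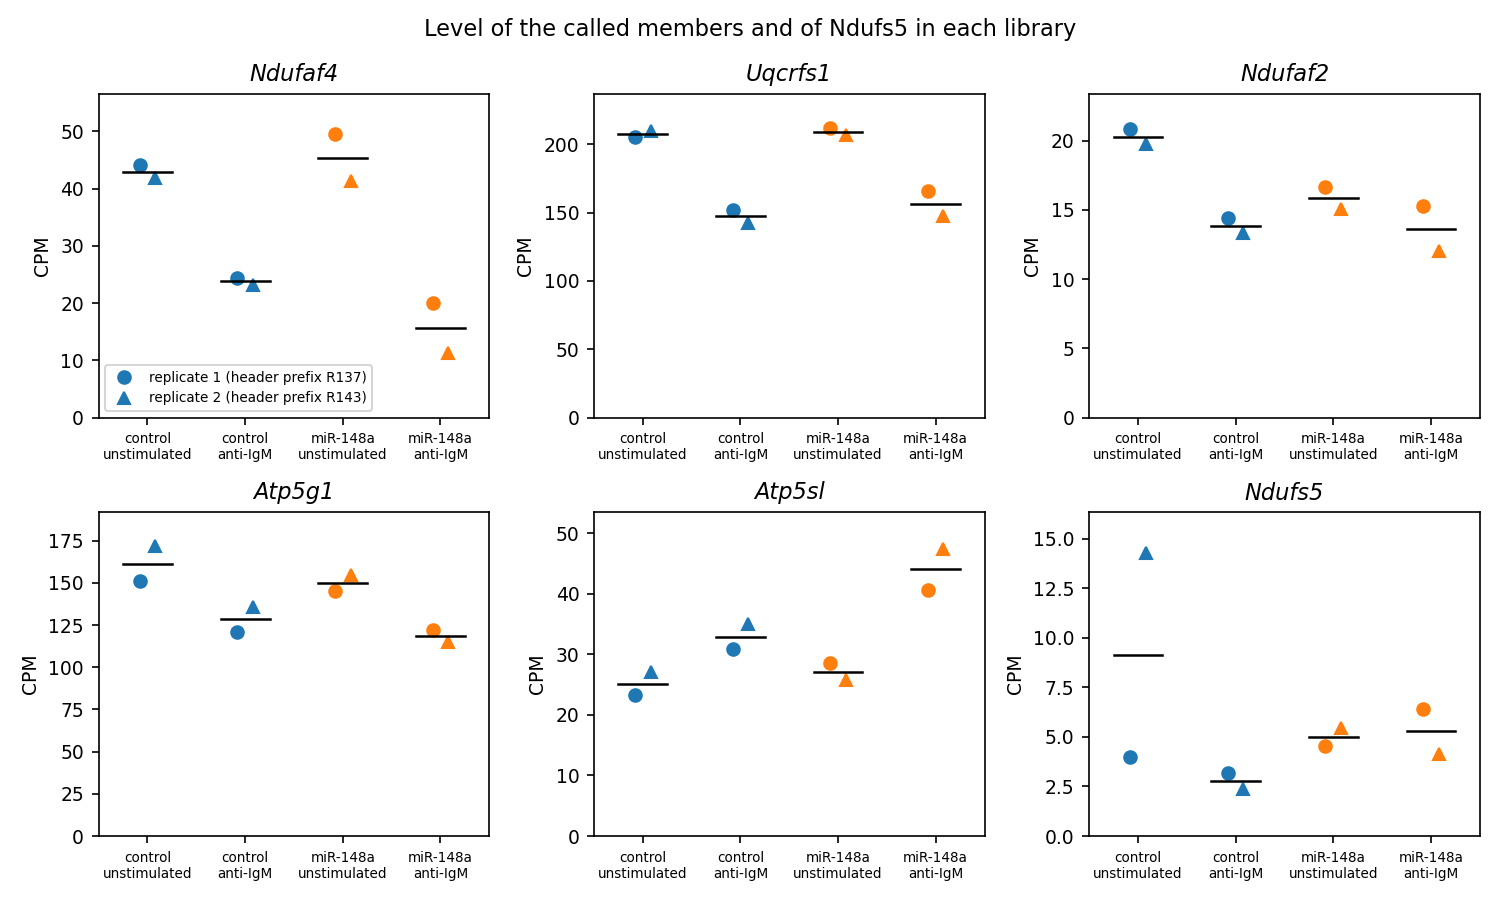
CPM (vertical axis, from 0) in each library for the 5 genes called in either line and for Ndufs5; circles are replicate 1, triangles replicate 2, bars the mean of 2 libraries. Ndufaf4 falls from 41.3 to 49.6 CPM in unstimulated libraries to 11.3 to 24.4 CPM with anti-IgM, and the Ndufs5 panel shows 1 unstimulated control library at 14.3 CPM above all others.

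Ndufs5, an accessory subunit of complex I, is described because its value was the most extreme of all, and it was chosen after its values were seen. It was at 3.99 and 14.3 CPM unstimulated and 3.18 and 2.35 CPM with anti-IgM in the control line, and at 4.52, 5.46, 6.41 and 4.15 CPM in the miR-148a line. Only replicate 2 of the unstimulated control group was high. Its log2 fold change of -1.72 ± 0.57 in the control line did not pass (adjusted p = 0.0698), passed with the block (0.0112), with DESeq2 (0.0108) and without a filter (0.0108), and was -0.57 (adjusted p = 0.383) without that library. Without replicate 1 of the same group, which leaves the high library alone, it was -2.41 (adjusted p = 0.00616). The deposited values of Ndufs5 were not whole in any library, as for Atp5f1, Atp5j, Ndufa13 and Ndufs1, so its level is an estimate rather than a tally of reads.

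Of the 36 complex I genes none passed in either line in edgeR's test without the block, while in the control line DESeq2 and the settings given above called Ndufs5. In the control line their median log2 fold change was -0.09, with 26 negative and 10 positive, and in the miR-148a line it was -0.01, with 19 negative and 17 positive. The 7 core subunits, which carry the flavin and iron-sulfur groups and the ubiquinone site, had medians of -0.17 and -0.15, and the 29 accessory subunits -0.07 and 0.00. Ndufs1, the largest core subunit, was at 174 and 150 CPM unstimulated and 139 and 112 CPM with anti-IgM in the control line. The miR-148a line had 148 and 136 CPM unstimulated and 135 and 97.0 CPM with anti-IgM. Its stimulated libraries lay below the unstimulated ones within each line. It passed with the replicate block in both, with log2 fold changes of -0.38 (adjusted p = 0.004) and -0.31 (adjusted p = 0.00991).

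The block added few other complex I calls. In the control line Ndufb5 (-0.25) and Ndufs5 fell. In the miR-148a line Ndufa10 (-0.24) and Ndufab1 (-0.29), the mitochondrial acyl carrier protein, fell, and Ndufa1 and Ndufv3 rose, by 0.29 and 0.30 on the log2 scale.

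Complex II, which is also the succinate dehydrogenase of the TCA cycle, had no call with or without the block. Sdha, the flavoprotein, was at 195 and 186 CPM unstimulated and 172 and 166 CPM with anti-IgM in the control line, and at 180 and 168 against 157 and 152 CPM in the miR-148a line. The groups did not overlap within a line, and the log2 fold change was -0.17 ± 0.09 in both (adjusted p = 0.237 and 0.195). Sdhb had -0.20 and -0.19, Sdhc -0.05 and 0.07, and Sdhd -0.07 and -0.02 in the control and miR-148a lines.

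None of the 12 complex IV genes passed without the block, and their medians were -0.06 in the control and 0.00 in the miR-148a line. Cox4i1 was at 443, 368, 402 and 386 CPM in the control line and 439, 403, 453 and 417 CPM in the miR-148a line, in the order unstimulated then stimulated, with overlapping groups. Its log2 fold changes were -0.04 (95% interval -0.29 to 0.21) and 0.05 (-0.20 to 0.30). With the block Cox7b fell in the control line (-0.28) and Cox5a in the miR-148a line (-0.20).

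Complex V had a median of -0.15 in the control line and -0.11 in the miR-148a line, with Atp5g1 in the miR-148a line as its 1 call of 15 genes. Atp5b was at 1654 and 1511 CPM unstimulated and 1468 and 1369 CPM with anti-IgM in the control line. The miR-148a line had 1543 and 1462 CPM unstimulated and 1364 and 1177 CPM with anti-IgM. Its log2 fold changes were -0.16 ± 0.10 (adjusted p = 0.32) and -0.24 ± 0.10 (adjusted p = 0.105, 0.00589 with the block). With the block, Atp5a1, Atp5c1, Atp5g1, Atp5h and Atp5j2 fell in the control line and Atp5a1, Atp5b, Atp5c1, Atp5g1 and Atp5g3 in the miR-148a line, 5 of 15 in each, against 34.8% and 46.1% of all genes. These block estimates ran from -0.33 to -0.22 in the control line and from -0.34 to -0.17 in the miR-148a line.

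Among the 11 assembly factors and related genes the median was -0.27 in both lines, with 8 and 9 of 11 negative. Besides those named above, the block added Atp5s in the control line (-0.67), and Ndufaf1 (-0.40), a factor of the membrane arm of complex I, and Sdhaf1 (-0.33), a factor of complex II, in the miR-148a line, all lower. Sdhaf2 was not called, at 0.07 and 0.17. No test compared the assembly factors with the subunits.

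The summed level of the 94 genes shows the size of these shifts. It was 12482 and 11534 CPM unstimulated and 11372 and 10610 CPM with anti-IgM in the control line, and 12119 and 11373 CPM unstimulated and 11627 and 10286 CPM with anti-IgM in the miR-148a line. The R143 library was below the R137 library in every group, so the groups overlapped in the miR-148a line. The log2 ratio with anti-IgM was -0.13 in the control line (-0.13 in the R137 and -0.12 in the R143 pair) and -0.10 in the miR-148a line (-0.06 and -0.14). Between the header prefixes it was -0.12, and 70 of 88 genes were lower in R143 than in R137, with a median of -0.12 against 0.00 over all genes tested. What differed between the R137 and R143 libraries was not tested.

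By complex, the summed level changed by log2 ratios of -0.10 for complex I, -0.12 for II, -0.16 for III, -0.07 for IV and -0.15 for V in the control line. In the miR-148a line the ratios were -0.05, -0.09, -0.14, 0.01 and -0.16 in the same order. A sum mostly follows its most abundant genes. In the unstimulated control line Atp5b (1583 CPM) and Atp5a1 (1388 CPM) held much of the mean 5662 CPM of complex V. With library totals as the only scaling, complex IV turned to 0.01 in the control line and complex I to 0.02 in the miR-148a line. The median of the 88 genes was then -0.03 in the control line and 0.01 in the miR-148a line, where the median of all genes was 0.09 and 0.07.

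**Figure D3:**
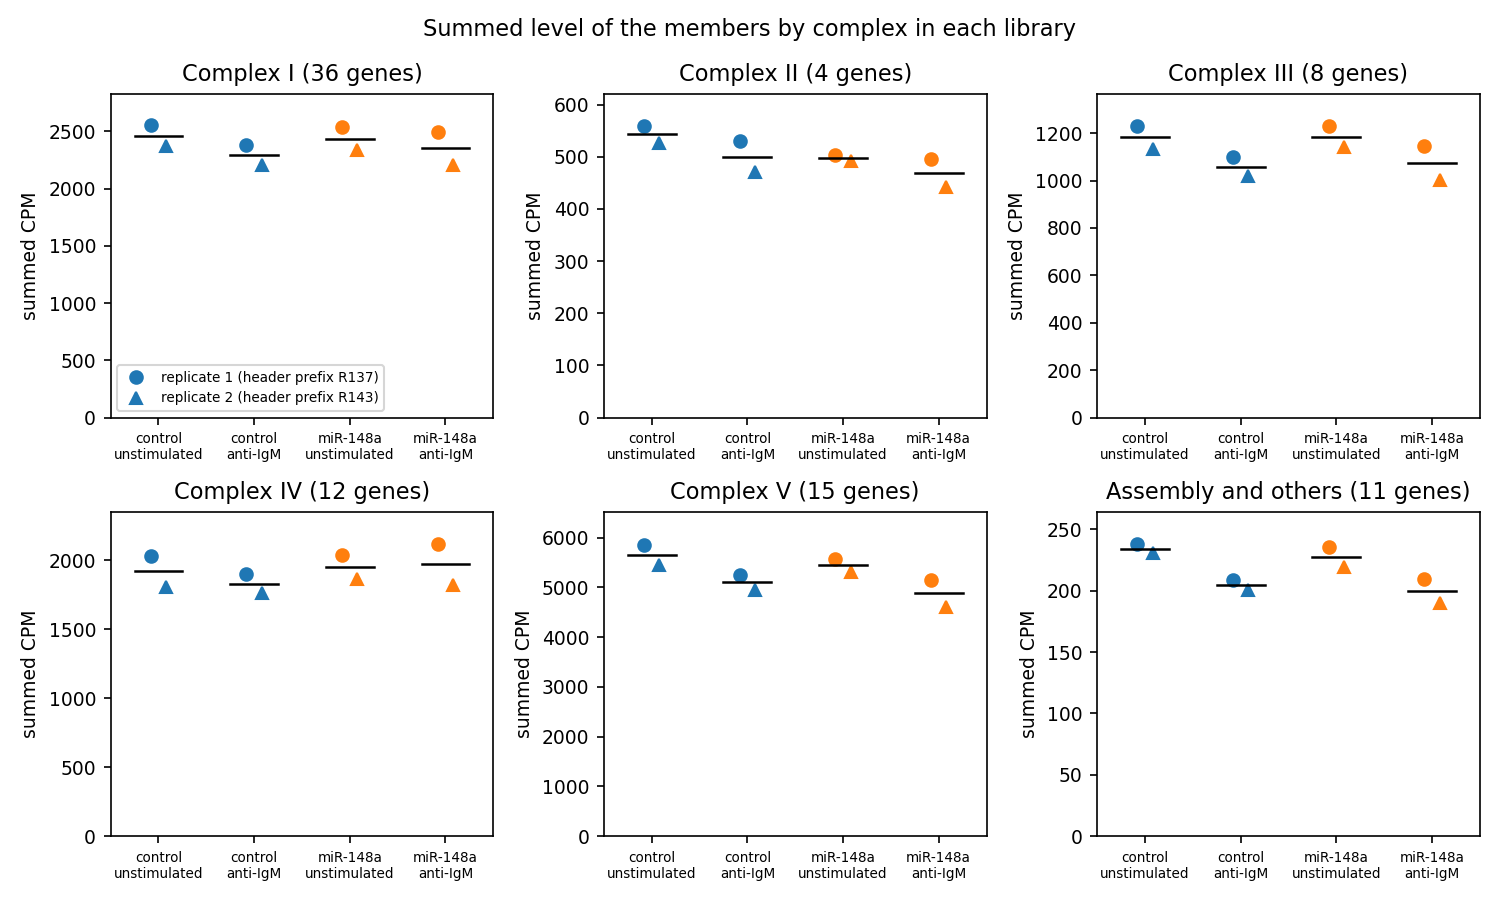
Summed CPM (vertical axis, from 0) of the genes of each complex in each library; circles are replicate 1 (R137), triangles replicate 2 (R143), bars the mean of 2 libraries. The triangle lies below the circle in every group, and for complex V the sum goes from 5863 and 5462 CPM to 5250 and 4953 CPM in the control line.

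Counted without a model, 37 of 88 genes had both stimulated libraries below both unstimulated ones in the control line, against 28.3% of all genes, and 6 had both above, against 31.1%. In the miR-148a line 23 were below, against 32.5%, and 8 above, against 32.9%. Over all 8 libraries the highest CPM was under 1.5 times the lowest for 70 of 88 genes, against 36.7% of all genes tested, with a median ratio of 1.32 against 1.64. All genes tested were not matched to the 88 by level, and counting error widens this ratio for genes with few counts. The same limit holds for the shares that moved by less than 0.25. The median SE in the control line was 0.124 over the 88 genes and 0.149 over all genes tested.

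The 95% intervals bound what could have been missed. In the control line the interval lay within 0.5 of 0 on the log2 scale for 59 of 88 genes and within 1 for 83, and in the miR-148a line for 57 and 83. The typical spread between replicates was a biological coefficient of variation of 11.1%, or 5.98% with the replicate block.

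The lines themselves were compared next, to see whether the miR-148a line differs in these genes. Unstimulated, none of the 88 genes passed, with 1 at an unadjusted p under 0.05 and none by DESeq2 or with the block, against 0.487% of all genes and 7.29% with the block. The median was -0.02 and the interval lay within 0.5 of 0 for 74 of 88 genes. With anti-IgM none passed without the block or by DESeq2, with 9 at an unadjusted p under 0.05, against 2.52% of all genes. With the block 4 were higher and 2 lower in the miR-148a line, against 16.1%.

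The 4 higher ones were Atp5sl (0.42), Cox7a2l (0.33), which helps join complexes III and IV into supercomplexes, and the complex I subunits Ndufb11 (0.30) and Ndufv3 (0.36), and the lower ones were Ndufab1 (-0.38) and Ndufaf4. Cox7a2l was at 70.5 and 62.4 CPM in the stimulated control and 88.6 and 78.5 CPM in the stimulated miR-148a line, and at 74.8 and 68.9 against 87.3 and 78.4 CPM unstimulated. Both miR-148a libraries were above both control libraries in each state. Unstimulated, 10 of the 88 genes and 2607 of all 11291 lay so, and with anti-IgM 15 and 2454. For the interaction no gene of the 88 passed with the edgeR test (0% of all genes), with the block or by DESeq2. Over all genes 484 had an unadjusted p under 0.05, 1 of them among the 88, and 11 passed with the block.

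Genes that serve the same pathway outside the naming rule were counted from further lists. Their counts stand beside 17.0% of all genes called in the control line and 28.7% in the miR-148a line, and 34.8% and 46.1% with the replicate block, which added calls in most lists. Of 8 tested further subunits and electron carriers, none passed in the control line and only Cyc1, cytochrome c1 of complex III, in the miR-148a line (-0.37 ± 0.11). Cytochrome c itself, Cycs, had -0.27 and -0.49 and was called only with the block, in the miR-148a line (adjusted p = 0.00101). With the block 3 of the 8 fell in the control line and 2 in the miR-148a line. The 13 symbols searched for subunits encoded in mitochondrial DNA matched 0 genes of the deposited counts, so these subunits were not analysed here.

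Of 39 further assembly factors 4 fell in the control line and 9 in the miR-148a line (10.3% and 23.1%), and none rose. With the block 3 rose and 7 fell in the control line, and 3 rose and 13 fell in the miR-148a line. Foxred1, for complex I, fell by 0.52 and 0.81 on the log2 scale in the control and miR-148a lines. Ttc19, for complex III, fell by 0.50 and 0.45, Cox18, for complex IV, by 0.67 and 0.52, and Lrpprc, which stabilises mitochondrial messenger RNA, by 0.47 and 0.68. Sco1, a copper chaperone of complex IV, fell by 0.84 in the miR-148a line. Medians were -0.12 and -0.24.

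Of 19 genes for import of proteins into mitochondria 5 fell in the control line and 9 in the miR-148a line (26.3% and 47.4%), and 11 and 13 with the block. Chchd4, which oxidises imported proteins of the intermembrane space, went from 70.6 to 40.2 CPM (means of 2) in the control line and from 54.1 to 23.9 CPM in the miR-148a line. Its log2 fold changes were -0.80 ± 0.13 and -1.18 ± 0.13. The small chaperones Timm9 (-0.74 and -1.11) and Timm8a1 (-0.68 and -1.05) fell in both lines and Timm10 (-1.14) in the miR-148a line. Timm23, the channel of the inner membrane, fell by 0.46 and 0.73. In stimulated cells 3 of the 19 were called between the lines, against 2.52% of all genes. Timm23, Chchd4 and Timm9 were lower in the miR-148a than in the control line, with differences of -0.82, -0.77 and -0.59. With the block 10 of the 19 were lower in the miR-148a line, against 16.1% of all genes called, and by DESeq2 2 were. Unstimulated, none of the 19 was called between the lines without the block, but 16 had lower estimates in the miR-148a line. With the block 2 of them were called lower, against 7.29% of all genes called, and by DESeq2 1 was. The median difference was -0.14 unstimulated and -0.29 stimulated.

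Of 77 mitochondrial ribosomal protein genes (Mrpl and Mrps) 5 fell in the control line, and 1 rose and 19 fell in the miR-148a line, in both lines a smaller share than of all genes, with medians of -0.20 and -0.21. With the block 1 rose and 28 fell in the control line, and 2 rose and 31 fell in the miR-148a line.

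Of 18 pyruvate dehydrogenase and TCA cycle genes 2 fell in the control line, Fh1 (-0.44) and Suclg2 (-0.40), and 3 in the miR-148a line, Idh3a (-0.66), Suclg2 (-0.43) and Cs (-0.39), or 8 and 7 with the block. Of 12 ubiquinone synthesis genes 2 fell in the miR-148a line, Pdss1 (-0.62) and Coq5 (-0.43), and none in the control line, or 2 in each with the block. Of 6 tested adenine nucleotide and phosphate carriers none passed without the block, and with it 1 fell in the control line and 2 in the miR-148a line. Of 9 antioxidant genes Gpx4 rose in both lines (0.65 and 0.80), and in the miR-148a line Gpx1 rose (0.60) and Sod2 (-0.50) and Txn2 (-0.34) fell. With the block 1 rose and 1 fell in the control line, and 3 rose and 3 fell in the miR-148a line.

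Of 20 tested regulators of mitochondrial genes 1 rose and 5 fell in the control line, and 3 rose and 7 fell in the miR-148a line. In both lines this was a larger share than of all genes. The list was chosen with earlier results of these data known, so the larger share is not a test. With the block 2 rose and 9 fell in the control line, and 3 rose and 11 fell in the miR-148a line. Myc, a transcription factor of growth genes, went from 277 to 96.4 CPM (means of 2) in the control line and from 325 to 76.9 CPM in the miR-148a line, with log2 fold changes of -1.50 ± 0.31 and -2.08 ± 0.32. The coactivator Pprc1 (-0.79 and -1.34), the mitochondrial helicase Peo1 (-0.59 and -1.04), the mitochondrial DNA polymerase Polg (-0.54 and -0.58) and Gabpb1, the partner subunit of Gabpa, (-0.43 and -0.47) fell in both lines. Tfb2m (-0.42) and Sirt1 (-0.43) fell in the miR-148a line. Ppard rose in both (0.55 and 0.65), and Esrra (0.40) and Ppara (1.59) in the miR-148a line. Among factors whose motifs were searched above, Nrf1 had -0.32 and -0.32, Gabpa -0.19 and -0.21 and Yy1 -0.21 and -0.23. These were not called without the block, and with it Nrf1 and Yy1 passed in both lines and Gabpa in the miR-148a line. Tfam, which packages mitochondrial DNA, had -0.08 and -0.09 and was not called with or without it. Of the genes of these lists named for a call in 1 line, the block also called Cyc1, Timm10, Cs, Idh3a, Pdss1, Coq5, Txn2, Tfb2m, Sirt1 and Ppara in the control line and Fh1 in the miR-148a line, in the same direction.

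**Figure D4:**
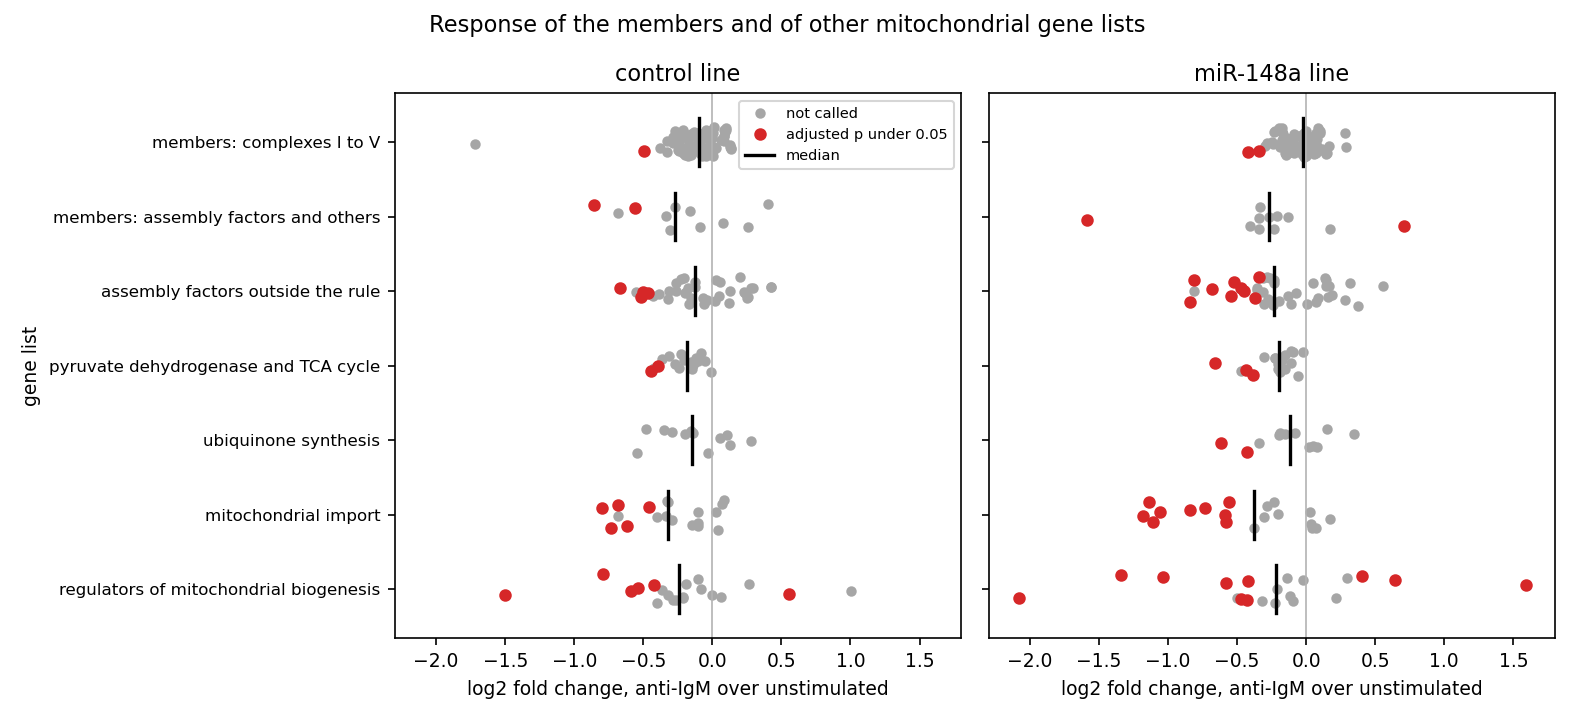
Log2 fold change with anti-IgM over unstimulated (horizontal axis) in the control line (left) and miR-148a line (right) for each tested gene of 7 lists; red points have an adjusted p under 0.05 and vertical bars are medians. In complexes I to V 1 and 2 of 75 genes are red, against 5 and 9 of 19 in the import list; no test compared the lists.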

How the data were processed

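The deposited values are estimated counts (24081 rows for 8 libraries) and were rounded to whole numbers here. The submitters' processing notes list TopHat2 2.0.13 and Bowtie2, cutadapt, CASAVA 1.8, edgeR and Partek 6.15.0730, and the build mm10 (GRCm38). The labels' protocols name a directional library kit, while the sources used here give neither its strand setting in counting nor the annotation, so reads of overlapping genes may be shared. The 27 rows with date-like names (0.213% to 0.235% of counts) were left out.

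All 24054 genes entered 1 fit in edgeR 4.0.16 (R 4.3.3) with 4 group means, a filter by group (11291 genes kept), TMM factors, the quasi-likelihood F test and Benjamini-Hochberg adjustment at 0.05. The fit was checked on simulated data, which had no shared deviation of same-numbered libraries, so the check does not cover that feature of the real ones. SE is the log2 fold change divided by the square root of F, and 4 residual degrees of freedom remain. Alternatives were the replicate block, DESeq2 1.42.0, upper-quartile factors, library totals only, no filter, the 4 libraries compared alone and leaving out each library. The genes and lists were chosen with earlier results of these data known. Genes named were those called (up to 6 each way per comparison, mean log2 CPM of at least 1). The 3 most abundant per complex, isoform families and complex II were named as well, with up to 4 called per further list. Of the regulators, all called ones were named, with Nrf1, Gabpa, Yy1 and Tfam. The other tested regulators were not called without the block and are not named. Genes called only with the block, Ndufs5, Cycs, Timm23 and list genes beyond 4 were added after their values were seen. Lengths are medians over coding basic transcripts of GENCODE M21, and of the 94 genes 93 were located there. Promoter windows are RefSeq's, and 78 genes matched by symbol or synonym.

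Replicate numbers come from the titles and from the header prefixes R137 and R143. Same-numbered libraries deviated together in all 6 pairs of groups (r across genes 0.495 to 0.569), so the replicate block is given for the genes described and as counts for the further lists. Figures were drawn with matplotlib.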

Additional observations from a re-analysis of the deposited data

How the results depend on the processing

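In the control line 3 of the 88 genes were called with anti-IgM, 14 with the replicate block, 5 without a filter (with Atp5g1 and Ndufs5 lower as well), and 0 to 3 with 1 library left out, the lowest counts coming without any 1 of the control libraries. With upper-quartile factors or library totals, 1 (Atp5sl) rose and 3 fell. In the miR-148a line 4 were called, 16 with the block, and 2 to 8 with 1 library left out, 8 without replicate 1 and 2 without replicate 2 of the stimulated group. Between stimulated lines the count went from 0 to 6 with the block and to at most 1 (Ndufaf4) with a library left out.

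Over all genes the replicate block moved the calls in the control line from 1925 to 3929, in the miR-148a line from 3238 to 5205, between unstimulated lines from 55 to 823, between stimulated lines from 284 to 1822 and for the interaction from 0 to 11. Between unstimulated lines DESeq2 called 152 and the fit without a filter 179. Between stimulated lines the latter called 450 and the fit to the 4 libraries compared 16, and for the interaction DESeq2 called 1. With 1 library left out, calls ran from 540 to 2082 in the control line, 1481 to 3155 in the miR-148a line, 0 to 76 between unstimulated and 0 to 222 between stimulated lines. A group left with 1 library is then assumed to vary like the others.

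For the 29 tested genes chosen by the naming rule, 1956 of 1999 single results under an alternative kept their side of the threshold and their direction where called, 26 lost the call, 17 gained one (11 with the block) and 0 reversed. Of the unchanged ones 189 differed in sign while neither fit called them. With 2 libraries a group, depth and replicate number limit changes under about 0.5 on the log2 scale, and low genes such as Ndufa4l2 most.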
